A study of Mus musculus with 56 samples.

Results

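Ubiquitin conjugating enzymes and ubiquitin-specific proteases were followed in mouse blood as the genes whose name on the array begins with Ube2, or with Usp and a digit, without Ube2c, Ube2l6 and Usp18. The rule took 90 of the 30199 gene names on the array, 35 Ube2 genes and 55 Usp genes, and did not use any expression value. Each gene was read from its brightest probe, and 66 of the 90 (27 Ube2 and 39 Usp genes) were measured on enough arrays to be tested, as were 18770 genes in all. The probes of the other 24 failed on 25% or more of the arrays, through a non-uniform spot or a signal not significantly above background, and among them were Ube2t, the conjugating enzyme of the Fanconi anemia pathway, and Usp22, the deubiquitinase of the SAGA complex. C57BL/6 mice were about 10 to 12 weeks of age on arrival and were then quarantined. The exposed mice received 200 kBq of 90Sr, a bone-seeking beta emitter, as the chloride in 0.05 mL through the tail vein. Control mice received the saline vehicle. Blood was taken by cardiac puncture on day 4, 7, 9, 25 or 30 after injection, from 4 control and 4 90Sr mice at day 4 and from 6 and 6 at each later day, and globin-reduced RNA of each mouse was hybridized to 1 one-color array. Because every mouse received the same activity, time since injection and accrued dose rose together and cannot be told apart.

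Ubiquitin is passed from an activating enzyme (E1) to a conjugating enzyme (E2, most of the Ube2 genes), and then, with a ligase (E3), to a target protein. Ubiquitin-specific proteases (the Usp genes) remove it again, so that the mark on a histone, a DNA repair factor or a membrane protein is set by both sides. A few Ube2 enzymes carry ubiquitin-like proteins such as SUMO or NEDD8 instead, and in maturing red cells the system is known for clearing organelles and surplus proteins.

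A level is given here as the log2 signal minus the median log2 signal of all gene probes of the same array, and a change is the mean level of the 90Sr mice minus that of the control mice of the same day. A gene was called where limma gave an unadjusted p under 0.001 with at least 2-fold change, and Benjamini-Hochberg adjusted p-values over all genes tested are printed with the changes. The 90Sr arrays had fewer probes well above background than the control arrays, without overlap at days 9, 25 and 30, and the range over the 56 arrays was 14389 to 24698. The day 4 control and 90Sr mice were on different slides, so slide and group cannot be told apart for that day, and for every other day a single slide carried 2 mice of each group. At day 7 and again at day 30, 4 of the 6 90Sr mice were on a slide scanned on another day than the other arrays of that day. The lists of cell markers moved with 90Sr as well. Of 14 monocyte markers 7, 6, 7, 5 and 5 were called lower from day 4 to day 30, and 1 higher, at day 30. At day 30 their summed level was 11.25 to 11.83 in control mice and 11.87 to 12.70 in 90Sr mice. Median changes were −0.74 to −0.48 for T cell, −0.76 to −0.14 for NK cell and −0.88 to −0.18 for neutrophil markers. Platelet markers had −0.07 to 0.79, with all 16 higher at day 30. Of 16 B cell markers, 13 or 14 were called lower at every day, and their summed level was 10.27 to 11.49 in control mice and 7.88 to 10.21 in 90Sr mice over the 5 days, without overlap at any day. All 23 erythroid markers were higher in 90Sr mice at days 7, 9 and 30, and 0, 2, 12, 0 and 18 of them were called higher from day 4 to day 30. Their summed level was 15.37 to 16.30 in control mice and 16.32 to 17.22 in 90Sr mice at day 9, and 15.57 to 16.49 against 16.62 to 17.35 at day 30. It was 16.00 to 16.31 against 16.52 to 16.76 at day 4 and 16.24 to 16.54 against 16.64 to 17.14 at day 7. At day 25 it was 15.85 to 16.22 against 16.24 to 17.01, so the sums were apart at all 5 days. At days 4 and 25, 21 and 22 of the 23 were higher, 13 at each day with limma adjusted p under 0.05. Every erythroid marker was well above background in at least 1 mouse of each group. Among the B cell markers, 1 was not well above background in any 90Sr mouse at days 4 and 30, and 2 were not at day 9. The part of these cell markers in the changes of the ubiquitin genes was not tested, and in whole blood fewer cells of a type and less RNA per cell cannot be told apart.

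Members were called lower alone at days 4 and 7, almost alone at day 25, and on both sides at days 9 and 30. At day 4, 14 of the 66 genes were called lower and 0 higher, where 17.4% of all genes tested were called lower and 2.14% higher. At day 7, 9 were called lower and 0 higher (12.1% and 2.59% of all genes). At day 9 the calls were 7 lower and 7 higher (13.7% and 4.41% of all genes), at day 25 they were 13 lower and 1 higher (19.8% and 5.69%), and at day 30 they were 11 lower and 14 higher (16.2% and 15.6%). The members called lower were 21.2%, 13.6%, 10.6%, 19.7% and 16.7% of the 66. The median change of the 27 Ube2 genes was 0.06, 0.10, 0.30, 0.17 and 0.46 from day 4 to day 30, and that of the 39 Usp genes was −0.58, −0.24, −0.24, −0.17 and −0.07, beside −0.01, −0.00, −0.08, −0.10 and 0.12 for all genes. The interquartile ranges of both sets overlapped at each day (−0.56 to 0.35 and −1.20 to 0.14 at day 4), and the difference between them was not tested. Over the 5 days 32 members were called at 1 or more days (48.4% of all genes were), and 34 at none. The control and 90Sr mice did not overlap in 43, 25, 20, 22 and 30 of the 66 members from day 4 to day 30, where 50.5%, 32.2%, 23.8%, 35.4% and 28.5% of all genes did not. At day 7 the count of called members was 5 in place of 9 without 90Sr replicate 5, and also 5 without 90Sr replicate 6. At day 30 the count of called members was 5 in place of 25 without the 4 90Sr mice of the separately scanned slide. This alternative was chosen after seeing the data and kept 2 90Sr mice. The separately scanned 90Sr mice of day 7 were not left out in this way.

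The center chosen for the arrays moved these splits. When arrays were centered on their 75th percentile, the median change of all genes became 0.47, 0.35, 0.31, 0.38 and 0.31, and the members called lower and higher became 2 and 6, 0 and 2, 1 and 16, 1 and 7, and 9 and 20 over the 5 days. Centering on the probes well above background on all arrays gave 5 and 4, 0 and 0, 4 and 14, 1 and 6, and 10 and 13, and quantile normalization gave 4 and 1, 0 and 0, 1 and 5, 1 and 3, and 9 and 7. The authors' processed log2 table, which holds 49 of the members, gave 17 and 0, 12 and 0, 16 and 3, 18 and 2, and 21 and 7, with a median member change of −0.87, −0.65, −0.74, −0.84 and −0.85 against −0.08, −0.07, −0.27, 0.09 and −0.39 for all its genes. With subtracted background plus 50, a setting chosen after seeing the data, the splits were 11 and 0, 2 and 0, 5 and 0, 14 and 0, and 8 and 1, so the side called higher went from 7 to 0 members at day 9 and from 14 to 1 at day 30. All 76 called changes of members kept their sign under the 3 other scalings, and none was called in the opposite direction. Centering on the 75th percentile or on the bright probes moves all genes of a day alike, here by less than 2-fold. No change of at least 2-fold could turn sign under these settings, so the sign was open to change under quantile normalization alone. Called under all 4 scalings were 2 at day 4 (Ube2g1 and Usp48, both lower), 0 at day 7, 5 at day 9 (Usp12 lower, Ube2h, Ube2j1, Usp25 and Usp45 higher), 2 at day 25 (Usp30 lower, Usp54 higher) and 15 at day 30, of which 9 were lower and 6 higher. Within the slide that held both groups, called members had the same sign in 9 of 9 cases at day 7, 14 of 14 at day 9, 14 of 14 at day 25 and 25 of 25 at day 30, and in 8, 11, 2 and 15 of them the change there was also at least 2-fold. The mice of that slide were among those that gave the calls, so the shared sign is largely set by the selection and is no independent check. With the slide as a fixed term, 7, 1, 0 and 1 members were called at days 7, 9, 25 and 30.

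**Figure D1:**
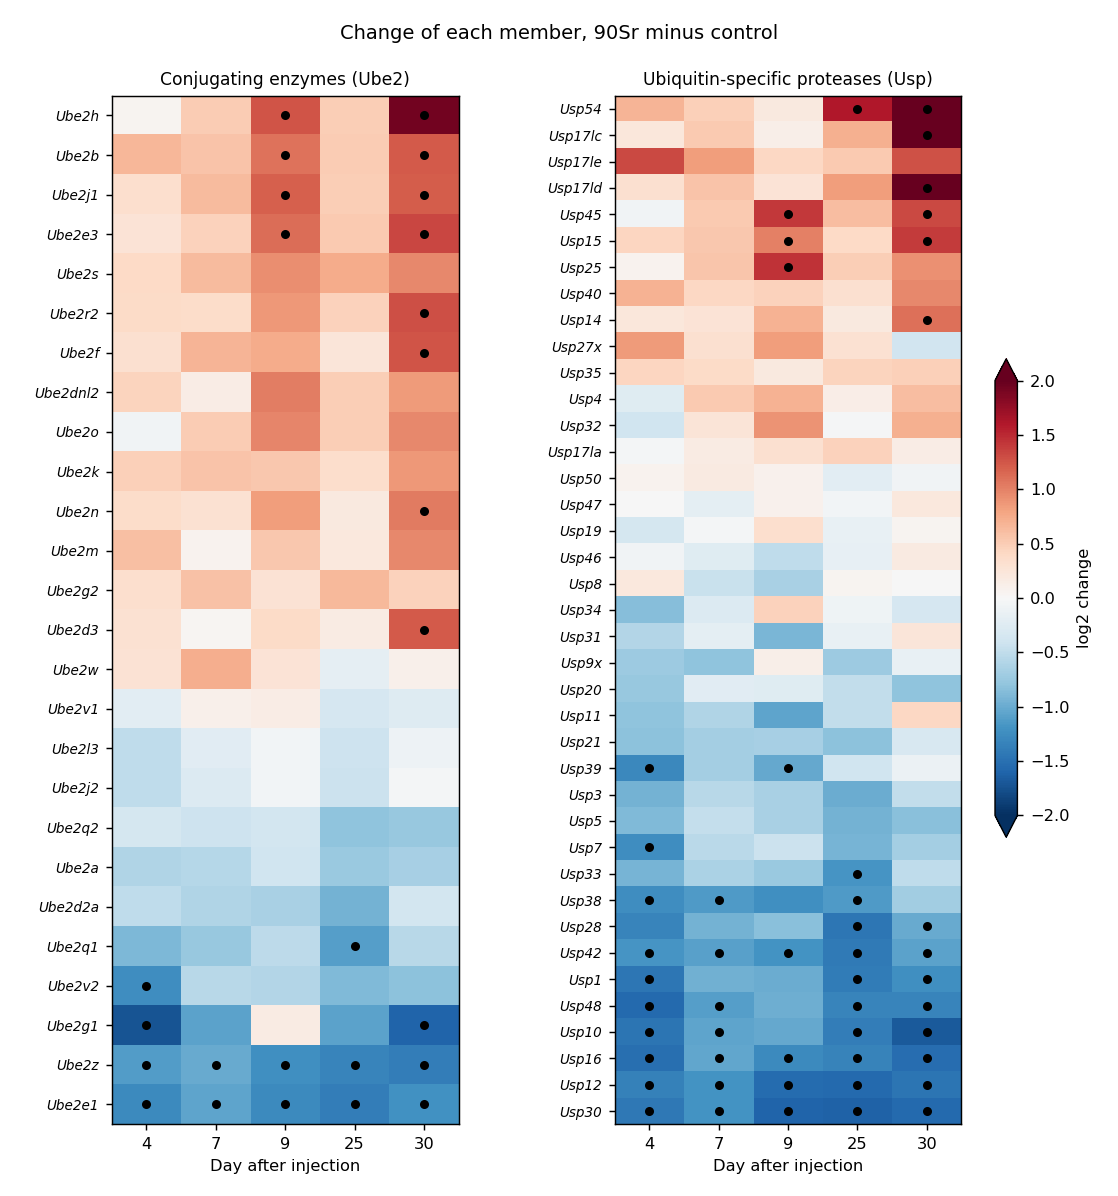
Change in level (90Sr minus control, log2) of 65 of the 66 tested members at each of the 5 days, with called members marked. With arrays centered on their median, calls were on the lower side alone at days 4 and 7 (14 and 9 genes). They were on both sides at day 9 (7 and 7) and day 30 (11 and 14). Of all genes tested, 17.4%, 12.1%, 13.7% and 16.2% were called lower at days 4, 7, 9 and 30, and 2.14%, 2.59%, 4.41% and 15.6% higher. The split changed with the center chosen.

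Differences between closely related members within one mouse do not depend on that center. For 14 pairs of related genes the level of the first minus that of the second was taken in each mouse and compared between groups with a two-sided exact permutation test, 70 tests in all, with Benjamini-Hochberg adjustment over the 70. The smallest p that the design allows is 0.0286 at day 4 (35 splits) and 0.00216 at the later days (462 splits). In 52 of the 70 tests the adjusted p was under 0.05. In 4 of these a member was not well above background in any 90Sr mouse (Ube2g1 at days 4, 7 and 30, and Usp46 at day 9), which leaves 48 of 66 tests measured on both sides. Unrelated genes were not paired, so the count describes these pairs and cannot be read as a trait of related genes. The sequences just upstream of both members of a pair are shown for Usp16 and Usp45 and for Ube2a and Ube2b. These are among the pairs that moved apart at all 5 days, and other such pairs are not shown. Each line is the 250 bases before a transcription start listed by RefSeq (GRCm38.p6), 5′ to 3′ on the gene's strand, and capitals mark matches on either strand. The motifs searched were AGATAA for the GATA-type site, then CCGGAAG for the ETS-type site, then CCAAT for the box of that name, then GGGCGG for the GC box, then CACGTG for the E-box, and the NRF1-type palindrome. Usp16 lies at chr16:87454735-87454984 on the plus strand and Usp45 at chr4:21776020-21776269 on the plus strand. Ube2a lies at chrX:36874045-36874294 on the plus strand, and Ube2b has 2 listed starts, at chr11:52000787-52001036 and chr11:52000492-52000741, both on the minus strand.
Usp16: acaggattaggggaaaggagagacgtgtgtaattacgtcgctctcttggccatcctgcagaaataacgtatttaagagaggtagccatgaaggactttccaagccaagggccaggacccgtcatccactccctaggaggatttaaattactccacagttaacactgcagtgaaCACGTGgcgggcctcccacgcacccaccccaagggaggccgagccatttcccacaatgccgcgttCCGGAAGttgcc
Usp45: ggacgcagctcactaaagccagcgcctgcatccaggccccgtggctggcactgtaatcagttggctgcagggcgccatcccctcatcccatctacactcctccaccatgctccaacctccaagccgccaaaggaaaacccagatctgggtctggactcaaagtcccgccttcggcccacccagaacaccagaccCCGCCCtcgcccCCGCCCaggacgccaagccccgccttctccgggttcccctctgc
Ube2a: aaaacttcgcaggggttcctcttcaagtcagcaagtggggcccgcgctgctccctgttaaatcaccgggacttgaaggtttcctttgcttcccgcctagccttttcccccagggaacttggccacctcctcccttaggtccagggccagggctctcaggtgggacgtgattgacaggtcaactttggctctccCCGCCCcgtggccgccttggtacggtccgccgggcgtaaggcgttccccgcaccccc
Ube2b, first start: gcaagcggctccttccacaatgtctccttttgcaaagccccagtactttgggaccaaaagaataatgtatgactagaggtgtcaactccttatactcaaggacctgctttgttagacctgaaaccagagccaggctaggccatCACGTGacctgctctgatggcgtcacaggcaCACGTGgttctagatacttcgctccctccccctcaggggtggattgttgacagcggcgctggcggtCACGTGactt
Ube2b, second start: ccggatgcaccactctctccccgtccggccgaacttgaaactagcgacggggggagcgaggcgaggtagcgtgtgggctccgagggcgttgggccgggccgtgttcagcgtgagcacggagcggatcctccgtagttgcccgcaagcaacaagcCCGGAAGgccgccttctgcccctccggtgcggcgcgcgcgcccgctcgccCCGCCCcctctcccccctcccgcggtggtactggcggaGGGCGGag
The Usp16 window held an ETS-type and an E-box match, where that of Usp45 held GC boxes alone. The Ube2a window held a GC box, and the windows of the Ube2b starts held E-boxes at one start, and an ETS-type match with GC boxes at the other. For Usp25 and Usp28, which also moved apart at all 5 days, the window of Usp25 held no match. That of Usp28 held 5 GC boxes and a CCAAT box. Over the 71 members with a listed promoter, 14 held an ETS-type match (19.7%, against 7.83% of 27025 genes of the table) and 47 a GC box (66.2%, against 35.4%), and 1 a GATA-type match (1.41%, against 11.4%). CCAAT was found in 29.6% of members and 37.5% of all genes, the E-box in 8.45% and 6.86%, and the NRF1-type motif in 0 members and 0.877% of all genes. The median GC content of these windows was 65.2% for members and 52.4% for all promoters, and a match to these letters is a description of the window alone.

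Usp16, which removes ubiquitin from histone H2A, fell against Usp45, its closest relative, which acts on the repair nuclease subunit Ercc1. The Usp16 minus Usp45 difference was lower in 90Sr mice by −1.45 ± 0.33 (SE, 4 against 4 mice, adjusted p = 0.04, exact permutation test) at day 4. It was lower by −1.57 ± 0.26, −2.69 ± 0.19, −1.95 ± 0.46 and −2.84 ± 0.33 at days 7, 9, 25 and 30 (6 against 6 mice, adjusted p = 0.00473 at each, exact permutation test). No 90Sr mouse overlapped a control mouse of its day in this difference. With normexp background correction the day 4 value was 0.068, and at day 4 the differences of 4 further pairs described here turned sign as well, to 0.16 for Ube2a minus Ube2b, 0.18 for Ube2e1 minus Ube2e3, 0.47 for Usp11 minus Usp15 and −0.73 for Usp25 minus Usp28. None of these 5 passed under that setting.

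Ube2a and Ube2b are the mammalian forms of Rad6, which work with Rnf20 and Rnf40 on histone H2B and with Rad18 on PCNA. Ube2a minus Ube2b was lower in 90Sr mice by −1.27 ± 0.14, −1.14 ± 0.20, −1.25 ± 0.19 and −1.89 ± 0.34 at days 4, 7, 25 and 30 and by a value between these at day 9, with adjusted p of 0.04 (exact permutation test) at day 4, 0.00473 at days 7, 9 and 25 and 0.00866 at day 30. The groups overlapped at day 30 alone. Ube2e1 minus Ube2e3, a pair of chain-building enzymes with an extended N-terminus, was lower by −1.56 ± 0.16 at day 4 and by −1.51 ± 0.27, −2.39 ± 0.28, −1.90 ± 0.37 and −2.55 ± 0.34 later, without overlap at any day. Usp25 rose against Usp28, its relative known for acting on Myc, by 1.39 ± 0.38, 1.49 ± 0.26, 2.29 ± 0.31, 1.94 ± 0.40 and 1.91 ± 0.29, again without overlap. At day 4 the Usp25 and Usp28 difference lost its adjusted p under 0.05 when any 1 of 4 mice was left out, with values of 1.20 to 1.72 over all mice left out.

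Usp11 fell against Usp15, which shares its domain layout, by −1.25 ± 0.13, −1.15 ± 0.25, −2.05 ± 0.25, −0.89 ± 0.19 and −0.98 ± 0.26. Usp11 itself was called at no day, with changes of −0.81, −0.60, −1.05, −0.49 and 0.41. At day 30 it was thus not lower, and Usp15 rose by 1.39. Usp12 fell against Usp46, which uses the same activator Wdr48, by −1.27 ± 0.27, −0.95 ± 0.34, −1.39 ± 0.48 and −1.65 ± 0.29 at days 4, 7, 25 and 30. At day 9 Usp46 was not well above background in any 90Sr mouse, and it was on 1 of 6 90Sr arrays at days 7, 25 and 30. The day 7 value of Usp12 and Usp46 had an adjusted p of 0.0437 (exact permutation test) and lost it when any 1 of 8 mice was left out, with −0.76 as the value nearest 0, without 90Sr replicate 6. Ube2j1 rose against Ube2j2, the other conjugating enzyme anchored in the membrane of the endoplasmic reticulum, by 0.84 ± 0.05, 0.91 ± 0.12, 1.25 ± 0.11, 0.93 ± 0.13 and 1.25 ± 0.20, read from the brightest probe of Ube2j1. A dimmer probe of Ube2j1 gave changes of −0.71, −0.14, −0.70, −1.02 and −0.84, so the direction of this pair depends on the probe. Usp11 minus Usp15 and Ube2j1 minus Ube2j2 had an adjusted p under 0.05 at all 5 days, and Usp12 minus Usp46 at the 4 days given. Ube2g1, at days 4, 7 and 30, was not well above background in any 90Sr mouse, so no difference from Ube2g2 is given there. At day 25, with 1 of 6 90Sr arrays well above background, Ube2g1 minus Ube2g2 was −1.72 ± 0.37, and at day 9 the difference was −0.14 ± 0.64 (adjusted p = 0.827, exact permutation test). The other probe of Ube2g2 gave −0.60, −1.17, −0.75, −1.37 and −2.50 where the brightest gave 0.33, 0.59, 0.30, 0.65 and 0.46. The deposited processed table gave this pair the opposite sign at days 7, 9, 25 and 30 (0.36, 1.22, 0.30 and 0.90). Of the pairs that passed less often, Usp4 minus Usp15 was lower by −0.68 ± 0.15 at day 4 and −0.78 ± 0.07 at day 30, and Ube2m minus Ube2f, the conjugating enzymes of NEDD8, passed at day 7 alone with −0.61.

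**Figure D2:**
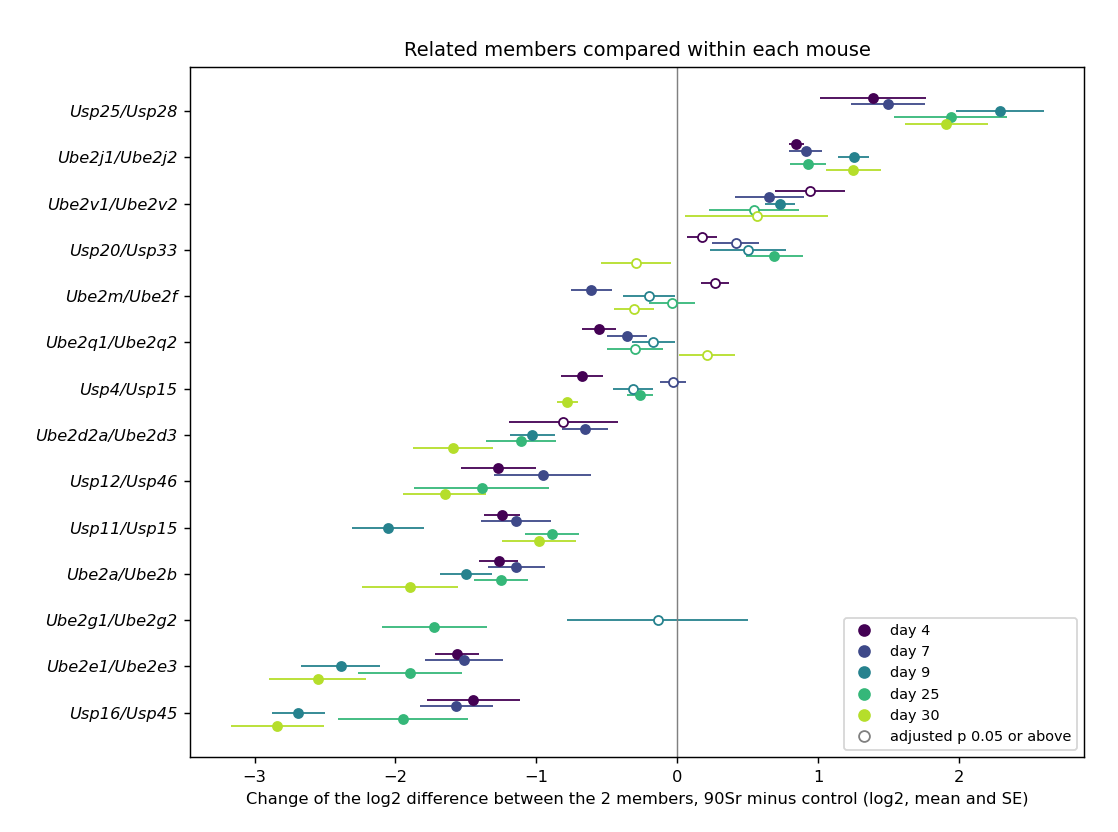
Difference in change between the members of 14 related pairs at each day, mean ± SE in log2 units, with open circles where the adjusted p of the exact permutation test was 0.05 or more. Usp16 minus Usp45 went from −1.45 at day 4 to −2.84 at day 30, Usp25 minus Usp28 lay above 0 at every day, and Ube2m minus Ube2f ran from −0.61 at day 7 to 0.27 at day 4. Ube2g1 minus Ube2g2 at days 4, 7 and 30 and Usp12 minus Usp46 at day 9 are not drawn.

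Called lower at all 5 days were 6 members (6.33% of all genes were, 0.032% were called higher at all 5, and 6.36% in either direction): Ube2e1, Ube2z, Usp12, Usp16, Usp30 and Usp42. Their probes lie at chr14:19115260-19115318, chr11:95909874-95909933, chr5:147546439-147546498, chr16:87483697-87483756, chr5:114572874-114572933 and chr5:144471354-144471413 (mm9, from the array files), in that order. Ube2e1, which builds chains with many RING ligases, had levels of 4.25, 4.26, 4.60 and 4.66 in the day 4 control mice and of 2.99, 3.13, 3.25 and 3.29 in the 90Sr mice. Every 90Sr mouse was below every control mouse, and the change was −1.28 ± 0.14 (SE, limma adjusted p = 0.000204). At days 7, 9, 25 and 30 the Ube2e1 change was −1.06, −1.28, −1.38 and −1.21, and the groups touched at day 30 alone, where the lowest control mouse was at 3.45 and the highest 90Sr mouse at 3.50. The 2 other probes of Ube2e1 gave −0.81 to −1.49.

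Ube2z, an enzyme charged by the activating enzyme Uba6, went from 3.66, 3.85, 3.86 and 3.97 in control mice to 2.40, 2.50, 2.92 and 3.06 in 90Sr mice at day 4. The change was −1.12 ± 0.17 (limma adjusted p = 0.000716) and reached −1.38 ± 0.23 (limma adjusted p = 0.000214) at day 30, where control mice ran from 3.15 through a median of 3.84 to 4.07 and 90Sr mice from 1.75 through 2.37 to 2.93. The groups did not overlap at any day. Usp12, which works with Wdr48 and Wdr20, had 3.90, 4.01, 4.17 and 4.48 in control mice and 2.60, 2.83, 2.86 and 2.89 in 90Sr mice at day 4. All 90Sr mice lay together below the control mice, with a change of −1.35 ± 0.15 (limma adjusted p = 0.000213). The Usp12 change was −1.19, −1.54, −1.55 and −1.47 at the later days, the groups were apart at each, and at day 25 the 90Sr mice spread from 1.73 to 3.46 where the control mice kept within 4.09 to 4.33.

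Usp16 was at 3.33, 3.48, 3.57 and 4.00 in control mice and at 1.39, 2.14, 2.25 and 2.54 in 90Sr mice at day 4, a change of −1.51 ± 0.25 (limma adjusted p = 0.00104). At day 30 it ran from 2.63 through 3.70 to 3.88 in control mice and from 1.74 through 1.96 to 2.18 in 90Sr mice (−1.52 ± 0.22, limma adjusted p = 0.000112), with no overlap at any day. Usp30, which sits on the outer mitochondrial membrane and opposes the ligase parkin, changed by −1.43, −1.20, −1.60, −1.62 and −1.55, with 2.37, 2.81, 2.93 and 3.13 in control mice and 1.17, 1.37, 1.41 and 1.57 in 90Sr mice at day 4. At day 9 the Usp30 levels were 2.37 to 2.99 in control mice and 0.07 to 1.96 in 90Sr mice, and 3 of those 6 90Sr arrays were well above background. Usp42, described as a deubiquitinase of p53, changed by −1.17, −1.08, −1.19, −1.41 and −1.08, and its groups did not overlap at any day; at day 25 the control mice had 1.97 to 2.69 and the 90Sr mice −0.45 to 1.58. For none of the 6 did the test of the change between days pass (smallest limma adjusted p of the interaction 0.703, for Usp16). Under the 3 other scalings all 30 values stayed below 0. Those at day 7 were −0.66 to −0.95, short of 2-fold, so none of the 6 was called at all 5 days under another scaling. Other days fell short as well. With the 75th percentile Ube2e1 was at −0.80, −0.88 and −0.89 and Ube2z at −0.64, −0.83 and −0.84 at days 4, 9 and 25.

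At day 7 several of these calls rested on single mice. Without 90Sr replicate 5 the changes of Ube2e1, Ube2z and Usp42 were −0.93, −0.93 and −0.99, and without 90Sr replicate 6 that of Usp16 was −0.89. Ube2z lost its call when any 1 of 5 mice was left out, and Usp16 when any 1 of 4 was.

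**Figure D3:**
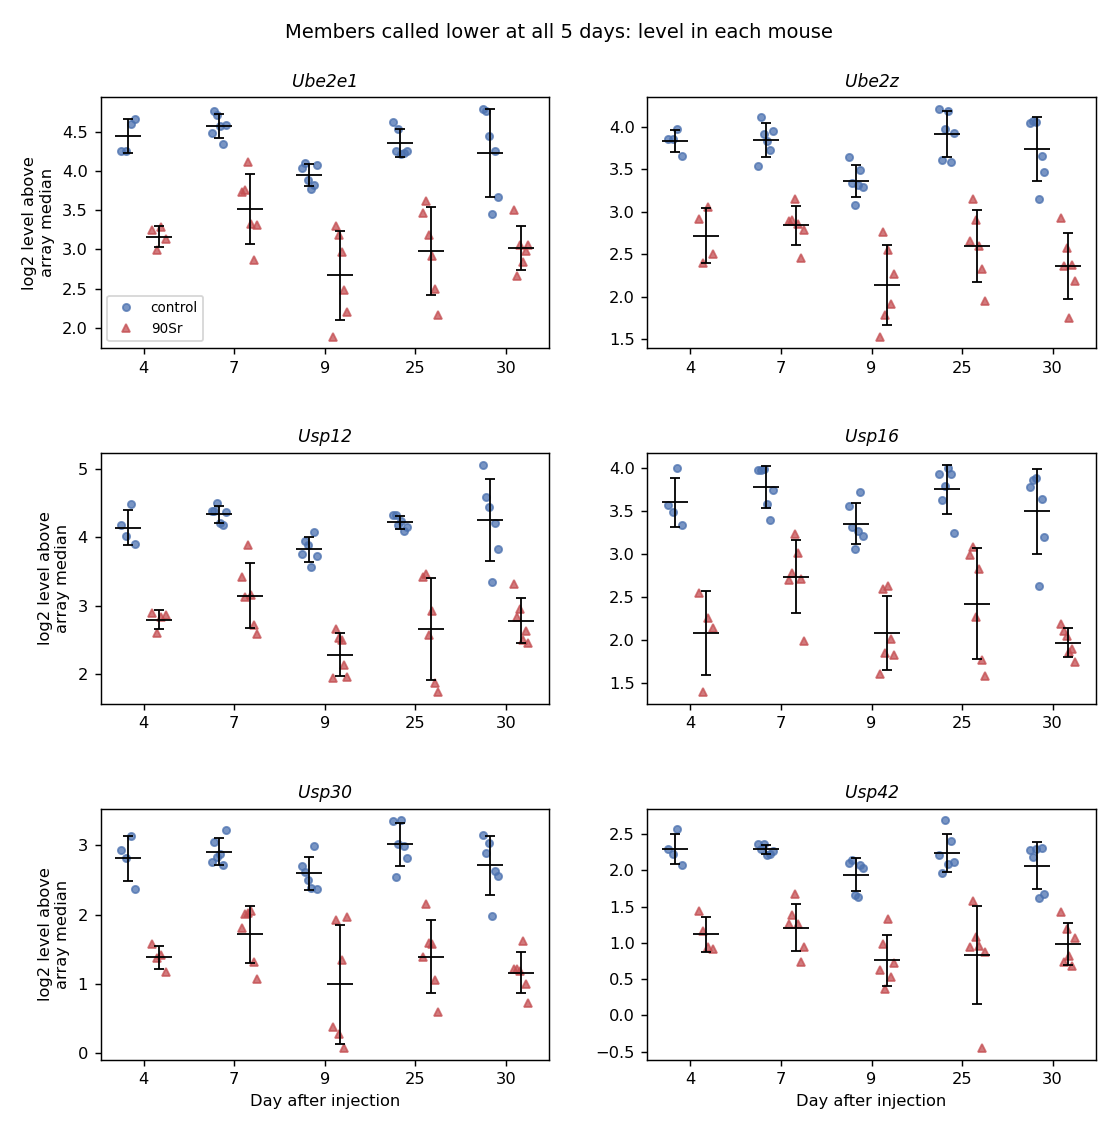
Levels (log2, minus the array median) of Ube2e1, Ube2z, Usp12, Usp16, Usp30 and Usp42 in each mouse, control and 90Sr side by side at 5 days, with mean ± SD bars. The 90Sr mice lie below the control mice of their day in every panel, apart from the contact at day 30 in Ube2e1 (3.45 against 3.50).

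Of the members that act on chromatin and DNA repair, 12, 11, 11, 11 and 10 of 14 had a change below 0 from day 4 to day 30. Of 19 listed for this role 14 were tested, and their median change was −1.09, −0.59, −0.65, −0.90 and −0.68 over the 5 days, with 6, 3, 1, 5 and 5 called lower and 0, 0, 2, 0 and 3 called higher. Of all genes 17.4%, 12.1%, 13.7%, 19.8% and 16.2% were called lower and 2.14%, 2.59%, 4.41%, 5.69% and 15.6% higher, so the 1 called lower at day 9 was below the share of all genes. Usp10, a deubiquitinase of p53, was called lower at days 4, 7, 25 and 30 (−1.46, −1.05, −1.38 and −1.68). At day 30 it was 2.24 to 2.99 in control mice and 0.39 to 1.53 in 90Sr mice, without overlap (limma adjusted p = 6.78e-05). Usp48, which removes ubiquitin from histone H2A, was called lower at the same 4 days (−1.56, −1.10, −1.32 and −1.32). Of its 3 other probes 2 gave −0.99 to −1.71 over the 5 days and one −0.04 to −0.95. Its day 4 levels were 2.54, 2.55, 2.87 and 3.10 in control mice and 0.74, 1.23, 1.34 and 1.51 in 90Sr mice. At day 9 both missed the threshold or the fold, at −1.02 ± 0.27 (limma adjusted p = 0.00644) for Usp10 and −0.98 ± 0.22 (limma adjusted p = 0.0025) for Usp48. The day 7 calls were lost without 90Sr replicate 6 for Usp48 (−0.98) and, for Usp10, with any 1 of 8 mice left out (−0.87 without 90Sr replicate 5).

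Usp1, which takes ubiquitin from Fancd2 and PCNA, changed by −1.44, −0.96, −0.99, −1.39 and −1.22 and was called at days 4, 25 and 30. At day 4 its levels were 2.62, 3.13, 3.27 and 3.63 in control mice and 1.05, 1.76, 1.78 and 2.28 in 90Sr mice, and that call was lost when any 1 of 6 mice was left out (−1.22 without 90Sr replicate 2). Usp7, which acts on Mdm2 and p53, was called at day 4 alone (−1.24 ± 0.17, limma adjusted p = 0.000428), with 4.64, 4.80, 4.86 and 5.20 in control mice against 3.31, 3.62, 3.71 and 3.90 in 90Sr mice. Its changes at the later days were −0.53, −0.42, −0.92 and −0.68. Usp3, a histone H2A deubiquitinase, was not called, at −0.94, −0.55, −0.64, −0.99 and −0.50, while its other probe gave −0.70 to −1.85 and was past 2-fold at days 4, 9 and 25. Usp28 was called at day 25 (−1.44) and, at the 2-fold line, at day 30, and the day 30 call was lost without 90Sr replicate 2 (−0.86) and 4 other mice. Ube2v2, the partner of Ube2n in DNA repair, was called at day 4 (−1.24 ± 0.20, limma adjusted p = 0.00088), with 3.57, 3.60, 3.79 and 4.02 in control mice and 2.10, 2.45 and 2.46 in the 3 lowest 90Sr mice, and the fourth was also below every control mouse. Its 2 other probes gave −0.32 and −0.59 at that day.

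Ube2a and Ube2b stood on opposite sides of 0. Ube2a was not called, at −0.60, −0.58, −0.41, −0.74 and −0.67, while its other probe gave −0.97 to −1.38 and reached 2-fold at days 4, 7, 9 and 30. Ube2b was called higher at days 9 and 30 (1.09 ± 0.24 and 1.22 ± 0.18, limma adjusted p = 0.00226 and 0.000108), and its 2 other probes gave 0.98 and 0.95 at day 9 and 1.09 and 1.29 at day 30. At day 30 Ube2b ran from 10.98 through 11.32 to 11.71 in control mice and from 12.12 through 12.58 to 12.83 in 90Sr mice, with every 90Sr mouse higher, while at day 9 the groups overlapped (10.89 to 11.70 against 11.51 to 13.04). The day 9 call was lost when any 1 of 5 mice was left out (0.98 without control replicate 6). At day 4 Ube2b had 11.58, 11.64, 11.64 and 11.70 in control mice and 12.17, 12.27, 12.30 and 12.47 in 90Sr mice, a change of 0.66 ± 0.12 (limma adjusted p = 0.00131), apart but short of 2-fold.

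Called higher at both days 9 and 30 were 6 members (1.53% of all genes were): Ube2b, Ube2e3, Ube2h, Ube2j1, Usp15 and Usp45. Ube2h, the partner of the Maea and Rmnd5a ligase of maturing red cells, rose by 1.27 ± 0.26 at day 9 and 1.93 ± 0.28 at day 30 (limma adjusted p = 0.00134 and 0.000114). At day 30 it ran from 5.34 through 6.50 to 6.65 in control mice and from 7.15 through 8.43 to 8.55 in 90Sr mice, without overlap. Its control levels differed between days (limma adjusted p = 5.71e-05), with the day 30 control mice lowest, and its other probe gave 1.28 at day 9 but 0.51 at day 30. Ube2h at days 4, 7 and 25 changed by 0.06, 0.51 and 0.49, and the change differed between days (limma adjusted p of the interaction 0.000962).

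Usp45 rose by 1.42 ± 0.22 at day 9 and 1.31 ± 0.19 at day 30 (limma adjusted p = 0.000212 and 9.91e-05). At day 9 it was 3.56 to 4.16 in control mice and 4.50 to 5.77 in 90Sr mice, and at day 30 3.66 to 4.26 against 4.80 to 5.76, so the groups were apart at both. At day 4 the groups overlapped (4.61, 4.70, 4.88 and 4.90 in control mice, 4.59, 4.69, 4.77 and 4.79 in 90Sr mice), and the change differed between days (limma adjusted p of the interaction 0.000293). Ube2e3 rose by 1.11 ± 0.23 and 1.34 ± 0.17, and at day 30 it was 7.27 to 7.60 in control mice and 8.31 to 9.12 in 90Sr mice, without overlap. Without day 9 control replicate 6 the day 9 change of Ube2e3 was 0.97. Usp15, which acts on receptors of the TGF-beta pathway, rose by 1.39 ± 0.18 at day 30, with 8.56 to 9.18 against 9.83 to 10.60. Its day 9 call was at the 2-fold line and was lost when any 1 of 7 mice was left out (0.87 without control replicate 6).

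Ube2j1, which passes ubiquitin to misfolded proteins leaving the endoplasmic reticulum, rose by 1.20 ± 0.24 and 1.21 ± 0.17 (limma adjusted p = 0.00109 and 0.000106). Its day 30 levels were 4.33 to 4.86 in control mice and 5.38 to 6.16 in 90Sr mice, without overlap. Of its 2 other probes one gave 1.37 and 1.26 at those days and the dimmer one −0.70 and −0.84, and the deposited processed table, which holds another probe of the gene, gave −0.80 and −1.14. The direction of Ube2j1 therefore depends on the probe. Under quantile normalization the day 9 and day 30 changes were 0.58 and 0.52 for Ube2b, 0.90 and 0.93 for Ube2e3, and 0.69 and 0.97 for Usp15, and those of Ube2h, Ube2j1 and Usp45 stayed above 1.

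**Figure D4:**
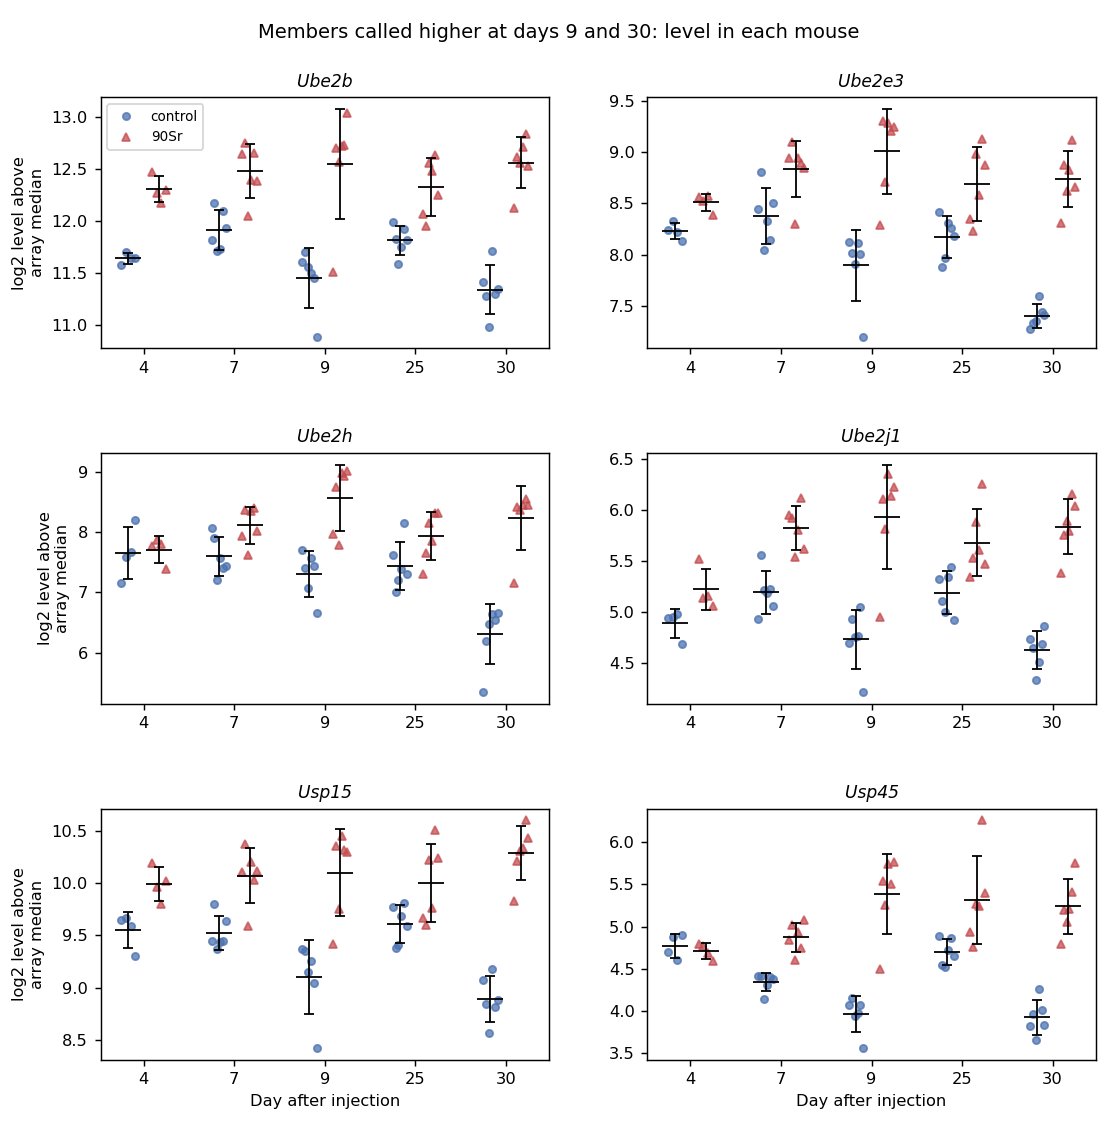
Levels (log2, minus the array median) of Ube2b, Ube2e3, Ube2h, Ube2j1, Usp15 and Usp45 in each mouse at 5 days, control and 90Sr side by side, with mean ± SD bars. The day 30 groups are apart in all 6 panels, and the day 4 groups overlap in Usp45 and Ube2h.

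Usp25 was called at day 9 alone, at 1.45 ± 0.24 (limma adjusted p = 0.000284), with 5.74 to 6.79 in control mice and 7.26 to 8.31 in 90Sr mice. At day 30 it was also apart between groups (6.12 to 6.88 against 7.07 to 7.71) at 0.91 ± 0.19 (limma adjusted p = 0.00108), short of 2-fold, and its other probe gave 1.47 and 1.39 at these days. At day 30 alone 7 members were called higher. Ube2d3, which serves many RING ligases, rose by 1.23 ± 0.20 (4.64 to 5.64 against 6.22 to 6.86), while its other probe gave 0.34 at that day and −0.25, −0.28, 0.20 and −0.20 at the earlier ones. Ube2f, which carries NEDD8 to Cul5, rose by 1.26 ± 0.18 (6.74 to 7.19 against 7.71 to 8.63), and Ube2r2, a conjugating enzyme of cullin ligases, by 1.29 ± 0.19 (10.37 to 10.99 against 11.31 to 12.42). Usp14, which trims chains at the proteasome, was at 5.35 to 5.73 in control mice and 6.22 to 6.99 in 90Sr mice, and rose by a little over 2-fold. In these 4 the groups did not overlap, and the limma adjusted p ran from 0.000102 to 0.000219.

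Ube2n, which builds chains linked through lysine 63 with Ube2v1 or Ube2v2, rose by 1.03 ± 0.18 at day 30 (limma adjusted p = 0.000322), with 1.89 to 2.54 in control mice and 2.89 to 3.68 in 90Sr mice. Without control replicate 1 the value was 0.94. Its other probe fell at the same day (−1.36) and gave −1.49 at day 4, so the 2 probes of Ube2n moved in opposite directions. The mean of both probes at day 30 was −0.16, and the deposited processed table gave −1.65. No direction can be given for the gene as a whole.

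Usp17lc and Usp17ld, of a mouse cluster of near-identical deubiquitinase genes, had the largest changes at day 30 with Usp54. Their probes are shown because they share most of their letters: of 60 bases 56 are identical, and capitals mark the 4 that differ, all within the last 30 bases. The Usp17lc probe lies at chr7:110567420-110567479 on the plus strand and the Usp17ld probe at chr7:110398772-110398831 on the minus strand (mm9, from the array files).
Usp17lc: gattcacctgcTcagatccaCagAaaaCtg
Usp17ld: gattcacctgcCcagatccaTagCaaaTtg
Usp17lc was at −0.40 to 1.35 in the day 30 control mice and at 1.42 to 4.83 in the 90Sr mice, a change of 2.99 ± 0.50 (limma adjusted p = 0.000223) without overlap. The control mice of the other days were higher than those of day 30, with 1.55 to 2.17 at day 4, 2.90 to 3.51 at day 7, 3.02 to 4.12 at day 9 and 2.28 to 3.63 at day 25, and the control groups differed (limma adjusted p = 3.45e-10). Without the 4 mice of the separately scanned slide the change was 1.48. Usp17ld changed by 2.07 ± 0.38 (1.65 to 2.86 against 2.71 to 5.29), and it was named after its values were seen. Hybridization to one of these genes cannot be told apart from the other, so both are uncertain, and Usp17ld overlapped between groups.

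Usp54 was called higher at days 25 and 30, by 1.60 ± 0.36 and 2.12 ± 0.47 (limma adjusted p = 0.00185 and 0.00143). Its levels at day 30 were 1.91 to 5.34 in control mice and 5.57 to 6.77 in 90Sr mice, which were apart, while at day 25 the groups overlapped (2.97 to 4.64 against 4.39 to 6.24). At day 9 the control mice had been at 5.36 to 6.39, and the control groups differed between days (limma adjusted p = 3.36e-05). Its other probe gave −0.29 at day 25 and 1.34 at day 30. The call was lost when any 1 of 7 mice was left out at day 25 (1.39 without 90Sr replicate 3) and any 1 of 4 at day 30 (1.69 without control replicate 1).

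**Figure D5:**
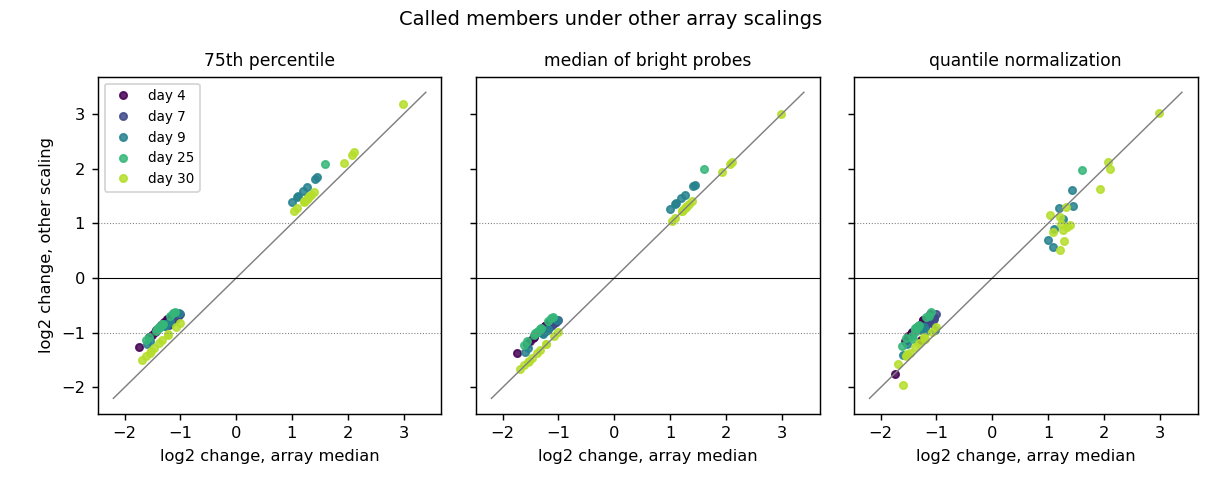
Each called change of a member at a day under centering on the array median (horizontal axis, log2) and under 3 other scalings (vertical axis, log2), with dotted lines at 1 and −1. All 76 points keep their sign, which could turn under quantile normalization alone, as the other centers move all genes of a day alike by less than 2-fold. The points at day 7 fall inside the dotted lines under each of the 3 other scalings, as none of the 9 was called there.

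Ube2m, the main conjugating enzyme of NEDD8, was at 0.59, 0.07, 0.54, 0.21 and 0.96. Its day 30 groups were apart (6.98 to 7.27 against 7.84 to 8.30) at just under 2-fold. Ube2l3, which serves HECT and RBR ligases, was at −0.51, −0.23, −0.05, −0.41 and −0.11, and its 3 other probes gave −0.42 to 0.36. Ube2s, which lengthens chains for the anaphase-promoting complex, was at 0.40, 0.64, 0.93, 0.74 and 0.96, with limma adjusted p of 0.00575 at day 9 and 0.000447 at day 30. Ube2o, known for clearing surplus proteins in reticulocytes, was at −0.06, 0.51, 0.97, 0.49 and 0.97. At day 9 all 90Sr mice were above the control mice for Ube2o (12.08 to 13.10 against 13.19 to 14.06). None of these 4 reached the call at any day.

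Ube2g1, which adds chains to cullin ligase targets, was called lower at days 4 and 30, but no 90Sr array of those days was well above background for it. Its level was at least 1.57-fold lower at day 4 and at least 1.03-fold lower at day 30, set against the dimmest signal well above background on each array (limma adjusted p = 0.000183 and 0.000185). Called at a few days were also Usp38 (−1.24, −1.13 and −1.13 at days 4, 7 and 25), Usp39, a splicing factor without protease activity (−1.29 and −1.03 at days 4 and 9), Usp33 (−1.18 at day 25) and Ube2q1 (−1.10 at day 25). Usp38, Usp39 and Ube2r2 were named after their values were seen. Without day 25 90Sr replicate 6 the values of Usp38 and Ube2q1 were −0.98 and −0.92, and without day 9 90Sr replicate 6 that of Usp39 was −0.92. Usp8 and Usp9x, which act on endosomal and membrane proteins, were not called, with changes of −0.64 to 0.21 and −0.80 to 0.12, and no 90Sr array was well above background for Usp9x at days 7 and 30. Usp32, a large membrane-associated deubiquitinase, was not called but its change differed between days (limma adjusted p of the interaction 0.000246): −0.39, 0.26, 0.90, −0.03 and 0.71. Of the members well above background on all 56 arrays, those with the smallest largest change were Usp50 (−0.21 to 0.17), Usp19 (−0.35 to 0.33) and Ube2v1 (−0.34 to 0.14), with standard errors of 0.10 to 0.39. One day 4 control value of Ube2v1 was left out as an outlier spot, so 3 control mice stand there. Other probes of these genes gave larger changes at some days, as the other Usp19 probe was at 1.37 at day 30, and the 2 other Ube2v1 probes were at 0.72 and 0.64 at day 9 and at 0.93 or more at day 30.

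The change with 90Sr differed between days in 21 of the 66 members (limma F test, adjusted p under 0.05), beside 22.9% of all genes, and the control groups of the 5 days differed in 37 members, beside 56.4% of all genes. The 3 genes left out by the rule moved with neither side as a group. Ube2c, the conjugating enzyme of mitosis, was called higher at days 9 and 30 (1.05 and 1.36), while Ube2l6 and Usp18, the pair that adds and removes ISG15, were called at no day.

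The rest of the pathway was counted over lists of the genes that act before, beside and after the members. The counts of these lists stand beside the shares of all genes given above (12.1% to 19.8% called lower and 2.14% to 15.6% higher over the 5 days), and the medians beside −0.01, −0.00, −0.08, −0.10 and 0.12 for all genes. Of 32 other deubiquitinases tested, 9, 5, 4, 10 and 7 were called lower and 0, 0, 2, 0 and 3 higher from day 4 to day 30, with a median change of −0.34, −0.26, −0.35, −0.44 and −0.17. Mysm1, a histone H2A deubiquitinase needed for B cell and stem cell development, was lower at all 5 days, by −2.01, −1.56, −1.64, −1.96 and −1.95. Otud5 and Yod1 were higher at days 9 and 30. Of 8 activating enzymes tested, 2, 1, 2, 2 and 2 were called lower and 0 higher at any day (medians −0.42, −0.41, −0.65, −0.63 and −0.02), among them Uba2, the activating subunit of SUMO, at days 4, 9, 25 and 30.

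Of 26 subunits of cullin-RING ligases and the anaphase-promoting complex, 6, 3, 4, 6 and 7 were called lower and 0, 1, 3, 0 and 6 higher (medians −0.31, −0.16, −0.17, −0.61 and −0.18). Within that complex Cdc16 was lower at all 5 days (−1.09 to −1.59) and Cdc27 higher at days 7, 9 and 30 (1.33, 1.20 and 1.80). Of 30 HECT and RBR ligases, 7, 1, 2, 6 and 3 were called lower and 0, 0, 1, 0 and 3 higher (medians −0.37, −0.18, −0.21, −0.43 and −0.01), with Nedd4l lower at all 5 days. Of 12 modifier genes, 1, 0, 1, 1 and 0 were called lower and 0, 0, 1, 0 and 1 higher (medians −0.03, −0.18, −0.03, −0.30 and −0.03).

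Of 19 partner proteins of the members, 3, 1, 2, 6 and 3 were called lower and 0, 0, 3, 0 and 2 higher (medians −0.50, −0.52, −0.50, −0.81 and −0.43). Rnf8, which works with Ube2n at DNA breaks, was lower at all 5 days (−1.67, −1.20, −1.17, −1.68 and −1.77), and Rnf168, which acts after it, at days 4, 9, 25 and 30 (−1.74, −2.07, −2.33 and −1.91). Wdr48, the activator of Usp1, Usp12 and Usp46, was lower at days 4, 25 and 30 (−1.28, −1.12 and −1.77). Rmnd5a, of the ligase that uses Ube2h, was higher at days 9 and 30 (1.03 and 1.05), which are the days of the Ube2h calls. These genes outside the family were named after their values were seen.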

How the data were processed

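RNA of whole blood from 28 control and 28 90Sr mice was measured on 1-color 44397-spot arrays, 43020 spots of them not controls. Per the file headers the deposited intensity (processed signal, background-subtracted) and the other columns used, spot flags of 0 or 1, came from Agilent Feature Extraction 11.5.1.1, while the submitters' processing notes name 10.7. Positions are mm9. The authors also deposited a log2 table, median normalized and filtered by them, which was used as an alternative alone.

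The log2 of the deposited intensity was centered on the median of the non-control spots of each array. Spots of a probe were averaged and the brightest probe over the 56 arrays stood for its gene. Outlier spots were left out, and a gene went untested where its probe failed on 25% or more of arrays (a non-uniform spot, or a signal not significantly above background). The members, lists and tests were chosen with earlier results of these data known. Genes were named by this rule: members with a known role, members called at all 5 days, the 2 largest calls in each direction at each day among those without overlap, the 3 smallest interaction p-values, the 3 steadiest genes, members of related pairs and the 3 genes the rule omits (1 member is not reported here). All other called members were added after their values were seen. limma 3.58.1 in R 4.3.3 (statmod 1.5.0) was fitted to each day by itself, and to all 10 groups for the interaction and the control days. It was tested on simulated data first. The array number limits the precision. No array correlated with another above 0.986. The labels number mice and say no more on replicates. Accessions matched RefSeq for 87 of the 90 members, and 71 had a RefSeq promoter. Alternatives were the scaling, background, filters, probe choice, call rule, blocks, weights and single mice left out.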

Additional observations from a re-analysis of the deposited data

Results flagged for a closer look

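A mouse stood apart from the others of its group (Dixon's test) in 49 of 439 groups over 44 members, where chance gives about 1 in 20 groups. In day 9 control replicate 6 the level was the lowest of its group for 9 members, and in day 9 90Sr replicate 1 for 8 members; both mice lie on the slide that held both groups of that day.

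In day 9 90Sr replicate 1 the lowest level of its group was that of Ube2b at 11.51, Ube2f at 6.89, Ube2m at 6.82, Ube2r2 at 11.07, Ube2v2 at 1.74, Usp14 at 5.46, Usp32 at 5.36 and Usp50 at 6.20. Day 9 control replicate 6 was lowest in its group for Ube2b at 10.89, Ube2d3 at 5.75, Ube2e3 at 7.20, Ube2r2 at 10.26, Ube2s at 9.09, Usp14 at 5.06, Usp15 at 8.42, Usp25 at 5.74 and Usp45 at 3.56. In day 9 control replicate 5 the highest level of its group was that of Usp1 at 3.33, Usp10 at 3.15, Usp33 at 3.46 and Usp39 at 1.59. Day 7 90Sr replicate 3 was lowest in its group for Ube2d3 at 6.03, Ube2e3 at 8.30 and Ube2r2 at 11.21. In day 30 control replicate 1 the lowest level of its group was that of Ube2d3 at 4.64 and Ube2h at 5.34. Day 30 90Sr replicate 1 was lowest in its group for Ube2h at 7.15 and Ube2n at 2.89. In day 7 90Sr replicate 6 the lowest level of its group was that of Ube2v2 at 2.20 and Usp1 at 1.34. Day 30 control replicate 4 was lowest in its group for Usp10 at 2.24 and Usp3 at 3.33. In day 4 control replicate 4 the lowest level of its group was that of Ube2j1 at 4.68. Day 4 90Sr replicate 2 was highest in its group for Ube2o at 13.38. In day 7 90Sr replicate 5 the lowest level of its group was that of Ube2q1 at 2.88. Day 7 control replicate 1 was highest in its group for Ube2q1 at 4.26. In day 25 90Sr replicate 6 the lowest level of its group was that of Ube2q1 at 2.02. Day 30 90Sr replicate 4 was lowest in its group for Ube2q1 at 2.40. In day 4 90Sr replicate 3 the lowest level of its group was that of Ube2s at 9.43. Day 4 90Sr replicate 4 was lowest in its group for Ube2v1 at 8.23. In day 30 90Sr replicate 5 the lowest level of its group was that of Ube2v1 at 5.76. Day 30 90Sr replicate 1 was highest in its group for Ube2v2 at 3.17. In day 7 control replicate 2 the highest level of its group was that of Usp14 at 6.46. Day 7 90Sr replicate 6 was highest in its group for Usp17ld at 4.59. In day 30 90Sr replicate 2 the lowest level of its group was that of Usp28 at 0.70. Day 4 90Sr replicate 2 was lowest in its group for Usp33 at 2.13. In day 25 90Sr replicate 4 the highest level of its group was that of Usp39 at 3.17. Day 25 90Sr replicate 5 was lowest in its group for Usp42 at −0.45. In day 7 90Sr replicate 1 the lowest level of its group was that of Usp9x at −0.91.

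The change with 90Sr differed between days, by limma's F test of the interaction, in 18 of these members, with adjusted p-values of 0.0399 for Ube2b, 0.00307 for Ube2d3, 0.00305 for Ube2e3, 0.013 for Ube2f, 0.0415 for Ube2g1, 0.000962 for Ube2h, 0.011 for Ube2j1, 0.0136 for Ube2m, 0.00382 for Ube2n, 0.014 for Ube2o, 0.0127 for Ube2r2, 0.00621 for Usp14, 0.0043 for Usp15, 0.000117 for Usp17lc, 0.00104 for Usp17ld, 0.00301 for Usp25, 0.000246 for Usp32 and 0.000293 for Usp45.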

How the results depend on the processing

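From day 4 to day 30 the array median gave 14, 9, 14, 14 and 25 called members. The count became 8, 2 and 8 at days 4, 7 and 25 with the 75th percentile, 9, 0 and 7 with the bright-probe median, and 5, 0, 6, 4 and 16 with quantile normalization. It was 0, 0, 0, 0 and 5 with normexp background correction, whose fitted background mean was below 0 on 30 arrays, and normexp left 0 members for the change between days, 7 for the control days and 28 of the 70 pair tests. With subtracted background plus 50, chosen after seeing the data, it was 2, 5 and 9 at days 7, 9 and 30, of which 0, 0 and 1 were higher. With the slide as a fixed term it was 1, 0 and 1 at days 9, 25 and 30, and without the 4 separately scanned 90Sr mice 5 at day 30. The members whose change differed between days, and whose control groups differed, were 11 and 16 in the authors' log2 table (49 members), 13 and 24 with the variation filter, 11 and 22 with the slide as a random block and 45 and 61 with array weights, against 21 and 37. The authors' table passed 24 pair tests of 40 against 52 of 70, but the pairs tested in it were not the same set. Leaving out 1 mouse gave 13 to 15, 5 to 11, 11 to 18, 11 to 16 and 22 to 29 called members, 19 to 25 and 31 to 44 for the tests across days, and 50 to 53 pair tests, and turned no sign of a called value.

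In the authors' table, which holds other probes, Ube2n was at −1.51, −1.32 and −1.65 at days 4, 9 and 30, Ube2j1 at −0.80 and −1.14 at days 9 and 30, Ube2g1 minus Ube2g2 at 0.36, 1.22, 0.30 and 0.90 at days 7, 9, 25 and 30, and Ube2q1 minus Ube2q2 at 0.20 at day 7. With the mean of probes Ube2n was at −0.16 at day 30. Usp4 minus Usp15 was 0.23 at day 7 with quantile normalization. With normexp at day 4, Ube2a minus Ube2b was 0.16, Ube2e1 minus Ube2e3 0.18, Ube2g1 minus Ube2g2 0.80, Usp11 minus Usp15 0.47, Usp25 minus Usp28 −0.73 and Usp16 minus Usp45 0.068. The cause was not tested.

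Same-numbered mice did not deviate together (8 of 28 correlations over 0.1, from −0.28 to 0.33), so the numbers name mice only. The replicate block gave 15, 9, 11, 13 and 25 called members, 21 and 35 across days, and 0 pair tests. At day 4 the paired permutations cannot reach a p under 0.05. At the later days their smallest p could pass the adjustment only if most tests reached it, so the 0 says little about the pairs. The number of arrays and the signal of dim probes limit the precision.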
